A study of Mus musculus with 16 samples.

Results

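The 50 genes described here are the mouse chemokines and their receptors, chosen by symbol from a fixed list and matched to the Ensembl rows of the count table, which lists 45706 genes. They comprise 29 ligands, 17 signalling receptors and 4 atypical receptors, and all 50 were found. RNA was sequenced from ear-clip biopsies, taken with a 3 mm punch, of 8 male mice of the inbred strain C57BL/6J. The labels name no engineered allele and no treatment. One ear of each mouse was clipped at 24 months and the other at 30 months, so that the 16 libraries form 8 pairs. By the labels, which call the samples young and old, the mice were 23.8 to 24.4 months old at the first clip and 29.0 to 30.1 months old at the second. The comparison asks which of these genes had a different transcript level in the skin of the same animal at the second clip. The interval was not equal in all mice: mouse 13 was clipped at 24.4 and 29.4 months, mouse 50 at 23.8 and 30.0 months. Age and the side of the ear cannot be told apart in this design, nor can age and having been clipped before. A mouse that died before its second biopsy could not enter the comparison. The mice are numbered 13, 14, 21, 29, 43, 50, 64 and 75 in the labels, and values listed for all mice follow that order.

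Chemokines are small secreted proteins that guide leukocytes along concentration gradients. They act through receptors of the G protein-coupled class on the migrating cell, and they are named C, CC, CXC or CX3C after the spacing of their first cysteines. Atypical receptors bind chemokines without activating G proteins and take them up, which shapes the gradient. In skin, keratinocytes, fibroblasts, endothelial cells, macrophages and dendritic cells make chemokines, some constantly and others only after an inflammatory stimulus such as interferon or tumour necrosis factor. Most of the signalling receptors are carried by leukocytes. In a whole-tissue sample, fewer cells of a type and less RNA per cell cannot be told apart.

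A library held 22967222 to 36162431 reads on genes (median 28922265). The other 18.7% to 21.1% of the reads in the count table stood in its summary lines, which name no gene. Levels are given below as CPM, counts per 1e6 reads on genes, the library size being scaled by the trimmed mean of M-values (TMM). The tissue label was met by its markers in every library. The summed level of 9 keratinocyte markers was 21044 to 27934 CPM at 24 months and 18514 to 28747 CPM at 30 months, and the summed level of 6 cartilage markers was 142 to 217 CPM and 115 to 163 CPM. Skeletal muscle markers varied widely among the punches, with 6 markers at 645 to 8134 CPM at 24 months and 926 to 6387 CPM at 30 months. The 30-month library of mouse 50 stood apart from the others for many immune genes, so several counts of chemokines and receptors are also given without that mouse. Counts over the lists of other genes are given with it only.

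No chemokine or receptor passed the threshold of an adjusted p under 0.05, and neither did any other gene: of 21526 genes with enough reads to be tested in edgeR's paired quasi-likelihood model, 0 were called (0%). DESeq2's Wald test, with the same term for each mouse, called 228 genes, none of them a chemokine or receptor, although it gave no adjusted p for 3 of the 48. Of the 50 genes, 48 were tested. The eosinophil receptor gene Ccr3 and the neutrophil receptor gene Cxcr1 had at most 3 reads in any library and were left out by the filter on low counts. At an unadjusted p under 0.05, 5 of the 48 (10.4%) were higher at 30 months, beside 4.86% of all genes tested, and 2 of the 48 (4.17%) were lower, beside 7.18%. The 5 higher genes were the ligands Ccl9, Ccl22 and Cxcl13 and the receptors Ccr1 and Ccr7. The 2 lower genes were the receptor Ccr10 and the atypical receptor Ackr4. These 7 are named as the genes at the head of an uncalled list, not as changed genes. Without mouse 50 the count was again 5 higher and 2 lower, of 47 tested, beside 975 higher and 1520 lower of all 21337 genes. Ccl22, Cxcl13, Ccr1, Ccr7 and Ccr10 remained, and Ccl4 and Cx3cr1 stood in the place of Ccl9 and Ackr4. For none of the 48 did the 8 values at one age all lie above the 8 values at the other. The share of all genes tested that did so was not computed, so this only describes the 48.

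The fitted changes of the ligands lay mostly above 0, and those of the receptors lay on both sides of it. Of the 29 ligands, 25 had a positive fitted log2 fold change, beside 51.7% of all genes tested, and their median was 0.34, beside 0.01 for all genes. The 15 tested signalling receptors had 7 positive and 8 negative values with a median of -0.02, and the 4 atypical receptors had 2 of each sign with a median of 0.01. The shift of the ligands was smaller without 1 animal. Without mouse 50, 19 of the 28 ligands still tested were positive and their median was 0.07, while 51.1% of all genes were positive in the same fit. The plot of fitted changes shows the widest errors for Cxcl9 (SE 1.24), Cxcl10 (SE 0.96), Ccl5 (SE 0.76) and Ccl4 (SE 0.63).

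**Figure D1:**
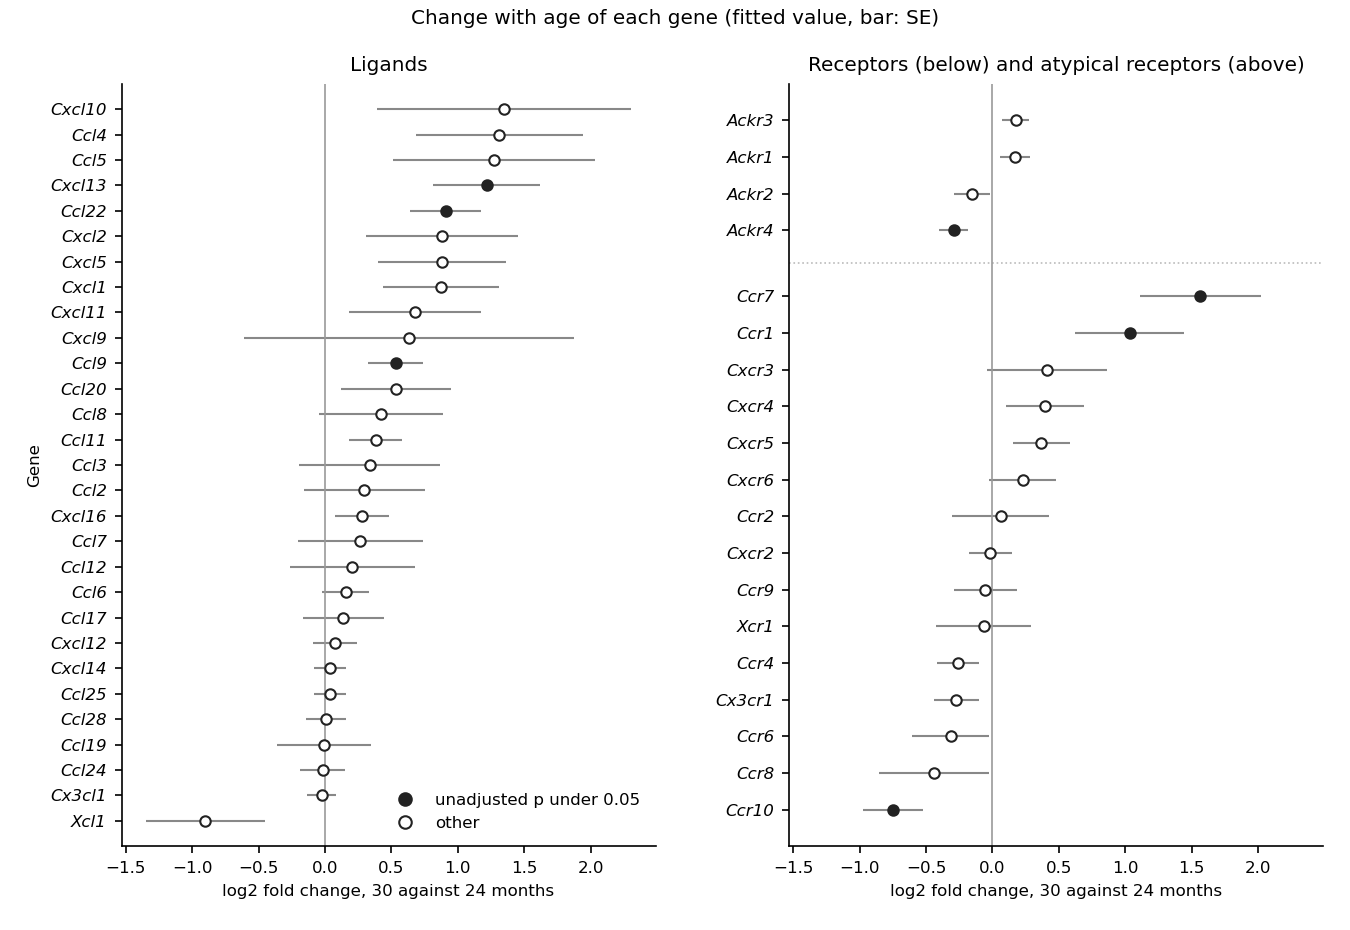
Fitted log2 fold change of each tested gene between 30 and 24 months (points) with its standard error (bars), for 29 ligands on the left and for 15 receptors and 4 atypical receptors on the right. Filled points mark the 7 genes with an unadjusted p under 0.05, and none of the 48 had an adjusted p under 0.05. The ligands lie mostly to the right of 0, from -0.90 for Xcl1 to 1.35 for Cxcl10.

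Levels were compared between genes as RPKM, which is CPM divided by the exon length in kb, as mean ± SD over the 16 libraries. The ligand at the highest level was Ccl8, a CC chemokine that skin macrophages are known to make, at 134 ± 129 RPKM. Cxcl13, which attracts B cells through the receptor Cxcr5, followed at 65.2 ± 53.4 RPKM. Ccl6, a rodent chemokine acting on Ccr1, was at 29 ± 8.43, Cxcl14, which epithelia make constantly, at 28.8 ± 5.52, and Ccl11 (eotaxin), which attracts eosinophils, at 16.1 ± 5.18 RPKM. The SDs of Ccl6 and Cxcl14 overlapped widely, so their order is not resolved. The next ligands were Cxcl12 (14.2 ± 4.29 RPKM), Ccl7 (13.5 ± 14.8 RPKM) and Cxcl16 (11.7 ± 5.02 RPKM). The lowest ligands, Cxcl11 and Cxcl5, were at 0.107 ± 0.142 and 0.104 ± 0.0944 RPKM, with at most 68 and 23 reads in a library.

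Among the receptors, the atypical ones stood above every signalling receptor by mean level. Ackr3, which removes Cxcl12, was at 15.5 ± 2.38 RPKM, Ackr1, the Duffy antigen receptor of venules and red cells, at 14.5 ± 2.4, Ackr4, which takes up Ccl19, Ccl21 and Ccl25, at 11.5 ± 2.07, and Ackr2, which removes inflammatory CC chemokines, at 8.91 ± 2.23 RPKM. The SDs of Ackr3 and Ackr1 overlap. The highest signalling receptor was Ccr4, found on skin-homing T cells, at 6.31 ± 1.37 RPKM. Cxcr6, a receptor of tissue T cells, and Ccr2, the receptor of inflammatory monocytes, followed at 4.65 ± 2.39 and 4.57 ± 3.42 RPKM and did not differ beyond their spread. Cxcr4, the Cxcl12 receptor, was at 2.99 ± 1.13 and Cxcr2, the neutrophil receptor, at 1.61 ± 0.491 RPKM. The other 10 tested receptors lay between 0.214 RPKM for Ccr8 and 1.11 RPKM for Cxcr3.

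**Figure D2:**
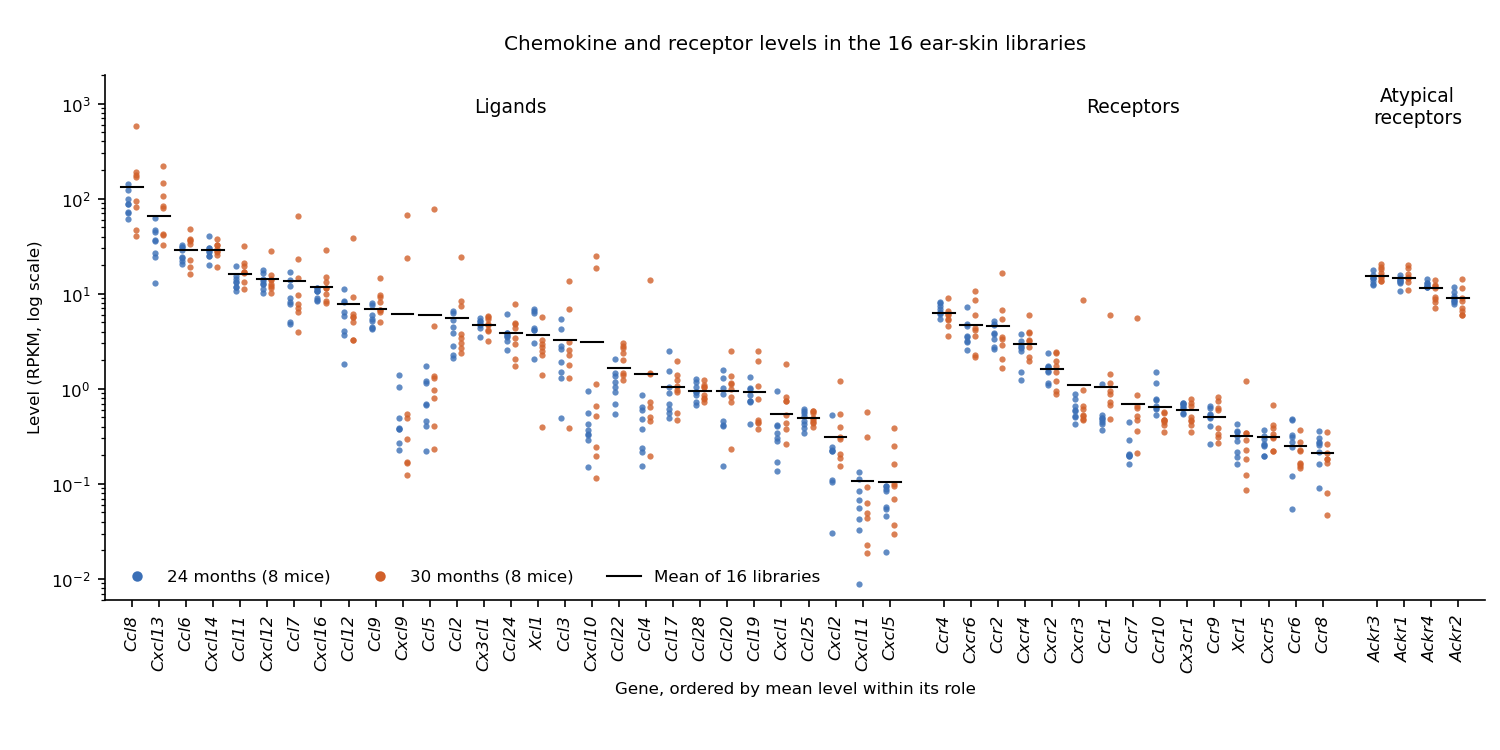
Level (RPKM, log axis) of the 48 tested genes in each of the 16 libraries, 24 months in blue and 30 months in orange, with a bar at the mean; within a role, genes are ordered by mean level. Ccl8 tops the ligands with a mean of 134 RPKM and the 4 atypical receptors lie in a narrow band between means of 8.91 and 15.5 RPKM, while Cxcl9, Cxcl10 and Ccl5 have means far above most of their own points.

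Ccl9 (ENSMUSG00000019122, chr11:83572919-83578636, minus strand) is a rodent CC chemokine that acts through Ccr1. Its level was 24.1, 13.6, 16.5, 13.4, 15.8, 12.8, 23.2 and 18 CPM at 24 months and 15.3, 19.7, 20.5, 44.1, 20.6, 28, 29.8 and 25.1 CPM at 30 months. It was higher at 30 months in 7 of 8 mice, the exception being mouse 13, and the 2 ranges overlapped. Its fitted log2 fold change was 0.53 (SE 0.21, edgeR adjusted p = 0.356). The highest value belonged to mouse 29 at 30 months, and without that mouse the fold change was 0.37.

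Ccl22 (ENSMUSG00000031779, chr8:94745590-94751699, plus strand), a product of dendritic cells and macrophages that attracts T cells through Ccr4, was at 2.72, 3.43, 3.14, 2.41, 1.26, 2.18, 4.78 and 1.6 CPM at 24 months and 3.25, 2.9, 7.04, 3.45, 6.29, 6.61, 5.57 and 4.62 CPM at 30 months. All mice but mouse 14 had more at 30 months, and mice 43, 50, 75 and 21 had over 2 times as much. The fitted log2 fold change was 0.91 (SE 0.27, edgeR adjusted p = 0.282). Ccl17 (chr8:94810453-94812036), the other Ccr4 ligand, lies near it on chromosome 8, with Cx3cl1 between them. Per length the level of Ccl17 was 1.06 ± 0.568 RPKM and that of Ccl22 1.65 ± 0.771 RPKM, which did not differ beyond their spread. Ccl17 was at 0.254 to 1.28 (median 0.407) CPM at 24 months and 0.241 to 1.02 (median 0.53) CPM at 30 months. Its fold change was 0.14 (SE 0.31), and 0.03 without mouse 50, with 4 mice higher and 4 lower.

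Cxcl13 (ENSMUSG00000023078, chr5:95956951-95961068, plus strand) had the largest fitted change among the 8 ligands at the highest RPKM. It was at 54.3, 30.8, 51.3, 72.8, 42.3, 41.6, 15.1 and 27.7 CPM at 24 months and 37, 47.1, 48.8, 97.1, 124, 252, 92 and 167 CPM at 30 months. The values at 30 months exceeded every value at 24 months in mice 29, 43, 50, 64 and 75, while in mice 13, 14 and 21 they stayed within the earlier range. The log2 fold change was 1.22 (SE 0.40, edgeR adjusted p = 0.312), and 1.0 without mouse 50. In mice 50, 64 and 75 the change was 2.59, 2.60 and 2.58, almost the same size in the 3 animals, whereas most other ligands had their largest change in mouse 50. The receptor of Cxcl13, Cxcr5, was at 0.656 to 1.24 (median 0.866) CPM at 24 months and 0.744 to 2.24 (median 1.08) CPM at 30 months. Its change was 0.37 (SE 0.21), and 0.21 without mouse 50, positive in 7 of 8 mice. Cxcr5 overlaps Bcl9l on the opposite strand.

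**Figure D3:**
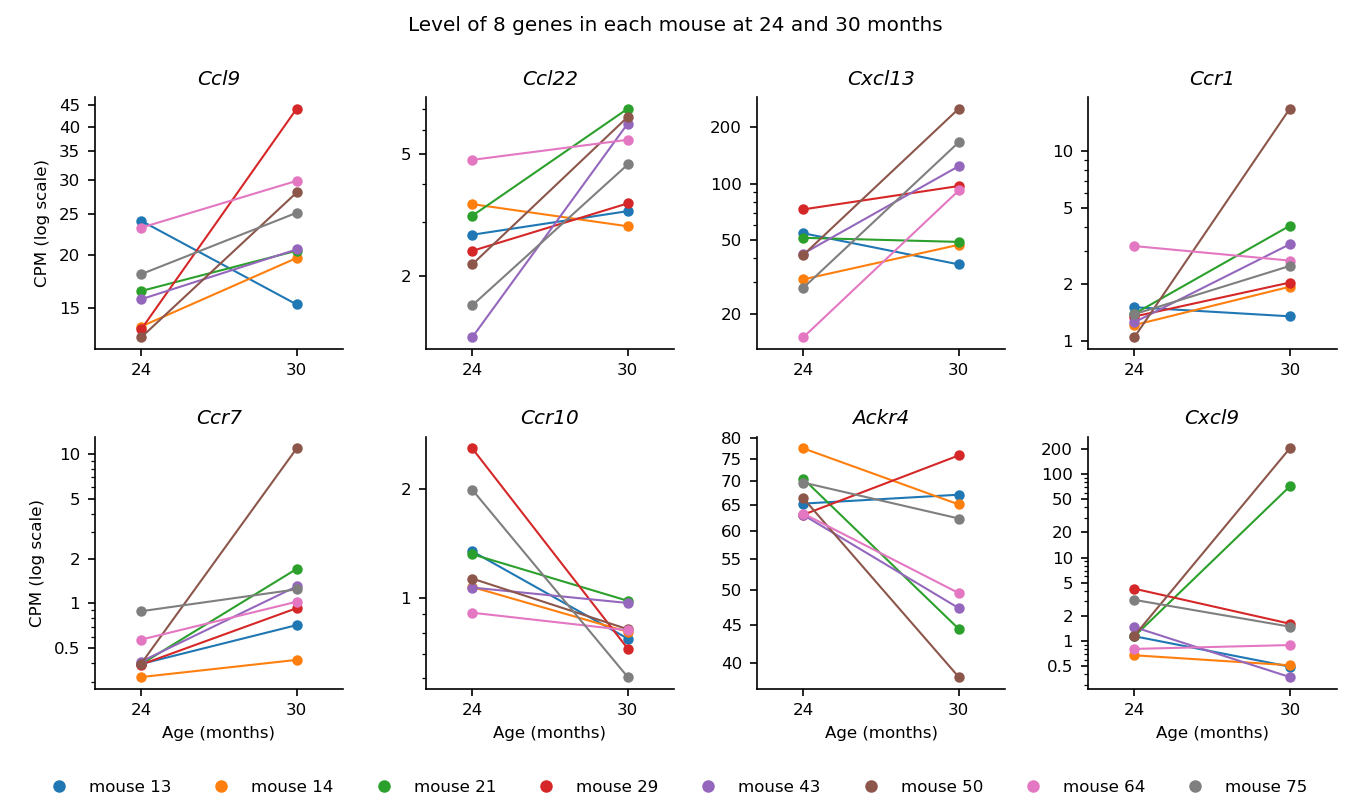
Level (CPM, log axis) at 24 and 30 months in each mouse, 1 line per mouse, for the 7 genes with an unadjusted p under 0.05 and for Cxcl9. All 8 lines climb for Ccr7 and all 8 descend for Ccr10; for Cxcl9 the lines of mice 50 and 21 end at 203 and 71.3 CPM and the other 6 end at 1.62 CPM or lower.

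Cxcl9, Cxcl10 and Cxcl11, the interferon-inducible ligands of Cxcr3, lie side by side on chromosome 5 and set mice 50 and 21 apart from the rest. Cxcl9 (ENSMUSG00000029417, chr5:92321347-92328079, minus strand) was at 1.15, 0.678, 1.14, 4.25, 1.48, 1.16, 0.808 and 3.12 CPM at 24 months and 0.496, 0.516, 71.3, 1.62, 0.372, 203, 0.899 and 1.49 CPM at 30 months. Outside mice 21 and 50 its level at 30 months was at most 1.62 CPM, and it was lower than at 24 months in 5 of those 6. The fitted log2 fold change was 0.63 (SE 1.24, edgeR adjusted p = 0.855), smaller than its error, and it turned to -0.28 without mouse 50 and to -0.20 without mouse 21.

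Cxcl10 (ENSMUSG00000034855, chr5:92346638-92348889, minus strand) repeated the pattern at 0.951, 0.821, 0.749, 2.13, 0.659, 0.735, 0.337 and 1.24 CPM at 24 months and 0.551, 1.48, 41.7, 2.52, 0.447, 56.1, 0.257 and 1.17 CPM at 30 months. Mice 21 and 50 held 41.7 and 56.1 CPM against at most 2.52 CPM in the others, of which 4 were lower than before. Its log2 fold change was 1.35 (SE 0.96, edgeR adjusted p = 0.584), and 0.66 when mouse 50 alone, or mouse 21 alone, was left out. Cxcl11 (chr5:92359544-92365485), which the annotation lists as a polymorphic pseudogene, was low, yet its 2 highest values were again those of mouse 50 at 30 months (2.14 CPM) and mouse 21 at 30 months (1.19 CPM). Its fold change was 0.68 (SE 0.50). Both genes overlap Art3 on the opposite strand, so a share of reads could belong there. Cxcr3, the receptor on activated T and NK cells, was 14.8 CPM in mouse 50 at 30 months but 0.81 CPM in mouse 21, inside the 24-month range of 0.746 to 1.51 (median 1.02) CPM. The fold change of Cxcr3 was 0.41 (SE 0.45), and -0.04 without mouse 50.

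The promoter windows of Cxcl10 and Cxcl9 are shown because these neighbours were high in the same 2 mice, and those of Cxcl1 and Cxcl2 because they are neighbouring genes for ligands of the same receptor, Cxcr2. Each window runs from 250 bases before to 50 bases after the RefSeq start on GRCm38.p6 and is printed 5′ to 3′ on the gene's strand. A window was given for 38 of the 50 genes, 40 windows in all. Capitals mark matches, on either strand, to 4 motifs: NF-kB (GGGA and TTCC, 2 bases apart), the interferon-stimulated response element core (GAAA repeated after 2 bases), the interferon-gamma activated site (TTCNNNGAA) and AP-1 (TGANTCA).
Cxcl10, chr5:92348840-92349139, minus strand: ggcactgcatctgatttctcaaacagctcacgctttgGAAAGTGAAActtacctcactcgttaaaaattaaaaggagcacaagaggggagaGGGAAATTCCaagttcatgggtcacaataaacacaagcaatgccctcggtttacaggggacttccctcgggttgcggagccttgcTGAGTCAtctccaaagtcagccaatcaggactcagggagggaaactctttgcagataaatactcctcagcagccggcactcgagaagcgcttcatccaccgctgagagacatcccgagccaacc
Cxcl9, chr5:92328030-92328329, minus strand: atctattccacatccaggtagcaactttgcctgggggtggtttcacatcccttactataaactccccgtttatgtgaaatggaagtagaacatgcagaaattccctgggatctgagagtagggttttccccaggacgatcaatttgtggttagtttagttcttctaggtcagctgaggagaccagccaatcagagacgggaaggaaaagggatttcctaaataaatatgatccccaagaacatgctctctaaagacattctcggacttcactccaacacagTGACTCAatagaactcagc
Cxcl1, chr5:90890995-90891294, plus strand: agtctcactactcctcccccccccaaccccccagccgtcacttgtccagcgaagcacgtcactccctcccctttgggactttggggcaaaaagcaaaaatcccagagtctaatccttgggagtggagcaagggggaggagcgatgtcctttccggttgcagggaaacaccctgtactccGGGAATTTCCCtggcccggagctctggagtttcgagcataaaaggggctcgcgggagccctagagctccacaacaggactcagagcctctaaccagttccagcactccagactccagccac
Cxcl2, chr5:90903649-90903948, plus strand: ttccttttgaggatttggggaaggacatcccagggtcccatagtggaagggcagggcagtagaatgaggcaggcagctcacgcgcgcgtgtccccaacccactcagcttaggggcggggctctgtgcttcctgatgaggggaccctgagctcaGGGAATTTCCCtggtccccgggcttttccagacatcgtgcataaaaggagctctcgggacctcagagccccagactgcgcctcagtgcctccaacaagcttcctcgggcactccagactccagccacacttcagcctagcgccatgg
In Cxcl10 the capitals are, in order, the interferon element core beginning 213 bases before the start, the NF-kB motif 159 bases before it and the AP-1 motif 74 bases before it. The single match in Cxcl9 is an AP-1 motif that begins 31 bases into the transcript. In Cxcl1 and Cxcl2 the same 11 letters match the NF-kB motif on both strands, shifted by 1 base, so each is 1 stretch and not a pair.

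Over the 40 windows, the NF-kB motif was found in 4 (10%), those of Cxcl1, Cxcl2, Cxcl10 and Ccr3, beside 1.47% of all 32851 windows of the same length. The interferon element core was in 3 (7.50%), those of Ccl19, Cxcl10 and Cxcl14, beside 3.44% of all. The interferon-gamma site was in 3 (7.50%), those of Ccl17, Ccr6 and Cxcl14, beside 8.30%. AP-1 was in 6 (15%), those of Ccl28, Ccl9, Ccr3, Ccr4, Cxcl10 and Cxcl9, beside 7.81%. A match describes the letters and is not evidence of binding. Among the 7 genes with an unadjusted p under 0.05, a window was given for 5, and Ccl9 held the only match of these 4 motifs, an AP-1 motif beginning 53 bases before its start.

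Ccl5 (ENSMUSG00000035042, chr11:83525778-83530518, minus strand) and Ccl4 (ENSMUSG00000018930, chr11:83662584-83664683, plus strand), chemokines that activated T cells and NK cells release, belong to a cluster of 5 ligands within 139 kb of chromosome 11, with Ccl9, Ccl6 and Ccl3. Ccl5 was at 0.393, 0.643, 0.214, 1.17, 0.659, 1.67, 0.438 and 1.1 CPM at 24 months and 0.386, 0.934, 4.44, 1.24, 0.223, 75.2, 0.771 and 1.31 CPM at 30 months. Mouse 50 had 75.2 CPM at 30 months and mouse 21 the next value, while the other 6 stayed at or below 1.31 CPM. The log2 fold change was 1.27 (SE 0.76, edgeR adjusted p = 0.527), and 0.61 without mouse 50.

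Ccl4 was at 0.426, 0.321, 0.392, 0.567, 0.157, 0.141, 0.101 and 0.249 CPM at 24 months and 0.303, 0.483, 0.938, 0.965, 0.335, 9.29, 0.128 and 0.426 CPM at 30 months. It was higher at 30 months in 7 of 8 mice, but outside mouse 50 every value was under 1 CPM and at most 28 reads. Its log2 fold change was 1.31 (SE 0.63, edgeR adjusted p = 0.437), and 0.63 without mouse 50. Ccl3, a close relative that attracts monocytes and T cells, was at 0.377 to 4.13 (median 1.74) CPM and 0.30 to 10.4 (median 1.85) CPM at the 2 ages. The change of Ccl3 was 0.34 (SE 0.53) and ranged from -2.41 in mouse 64 to 3.06 in mouse 50, and without mouse 50 the fitted change turned to -0.06.

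Ccl6 (ENSMUSG00000018927, chr11:83587882-83593087, minus strand), next to Ccl9 and read by the same receptor, was at 58.4, 55.8, 37.2, 43.2, 39.7, 42.3, 52.1 and 56.1 CPM at 24 months and 29.2, 65.6, 34, 64.7, 40.3, 86.4, 67.6 and 60.2 CPM at 30 months. Mouse 50 was the highest and mouse 13 the lowest at 30 months, on either side of the 24-month range. The fold change was 0.16 (SE 0.18, edgeR adjusted p = 0.731), and Ccl6 overlaps E230016K23Rik on the opposite strand. All 5 ligands of the cluster had a positive fitted change, with a median of 0.53. Without mouse 50, 4 of the 5 were positive, and Ccl6 was at 0.03.

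The 5 genes of another cluster on chromosome 11, within 81.2 kb, are Ccl2, Ccl7, Ccl11, Ccl12 and Ccl8, of which Ccl2, Ccl7 and Ccl12 attract monocytes through Ccr2. Ccl8 (ENSMUSG00000009185, chr11:82115185-82116799, plus strand) was at 73.4, 50.4, 37.1, 45.1, 36, 31.1, 63 and 45.1 CPM at 24 months and 24, 42.1, 98.2, 20.9, 48.6, 298, 91.8 and 87.4 CPM at 30 months. In mice 21, 50, 64 and 75 it was above every 24-month value, and in mice 13 and 29 below every one. The log2 fold change was smaller than its error, 0.42 (SE 0.47, edgeR adjusted p = 0.726), and 0.07 without mouse 50. Ccl2, Ccl7 and Ccl12 had their largest change in mouse 50 as well and a negative one in mouse 13. In mouse 50 their log2 changes were 3.50, 3.73 and 3.32, and in mouse 13 they were -1.26, -0.90 and -1.29. The fitted changes were 0.30 (SE 0.46), 0.27 (SE 0.47) and 0.21 (SE 0.47), and without mouse 50 they were -0.08, -0.12 and -0.19.

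Ccl11 (ENSMUSG00000020676, chr11:82057823-82062955, plus strand), of the same cluster, had a narrower range. It was at 15.5, 12.7, 16.5, 14.3, 21.3, 11.6, 14.5 and 12.7 CPM at 24 months and 21.3, 14.4, 18.5, 18, 12.1, 34, 22.6 and 18.5 CPM at 30 months, higher in 7 of 8 mice. Mouse 43, which had the highest level at 24 months, was the exception. Its log2 fold change was 0.38 (SE 0.20, edgeR adjusted p = 0.468), and 0.22 without mouse 50. Ccl24, another eotaxin, was at 3.29 to 7.92 (median 4.68) CPM and 2.27 to 10.1 (median 4.99) CPM, with a change of -0.02 (SE 0.17), and in mouse 50 it had its lowest level of the 16 libraries (2.27 CPM). Without that mouse its change was 0.13. The eotaxin receptor Ccr3 had 0 to 3 reads per library.

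Cxcl1, Cxcl2 and Cxcl5, which attract neutrophils through Cxcr2, lie within 147 kb of chromosome 5 and had fitted changes of 0.87 (SE 0.44), 0.88 (SE 0.57) and 0.88 (SE 0.48). Without mouse 50 those of Cxcl1 and Cxcl2 were 0.50 and 0.48, and Cxcl5 had too few reads to be tested. Their levels were low. Cxcl1 was at 0.254 to 1.79 (median 0.607) CPM at 24 months and 0.496 to 3.43 (median 1.19) CPM at 30 months, Cxcl2 at 0.0628 to 1.1 (median 0.46) and 0.32 to 2.49 (median 0.626) CPM, and Cxcl5 at 0.0357 to 0.178 (median 0.132) and 0.0551 to 0.724 (median 0.182) CPM. Mouse 50 held the highest level of all 3 at 30 months. Cxcl2 went the opposite way in mouse 75, from 1.1 to 0.32 CPM. Cxcr2 itself was at 3.36 to 7.18 (median 4.91) and 2.67 to 7.43 (median 4.93) CPM with a change of -0.02 (SE 0.16).

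Xcl1 had the most negative estimate of the 29 ligands. This chemokine of NK cells and T cells, which attracts dendritic cells that carry Xcr1, was at 1.08 to 3.6 (median 2.24) CPM at 24 months and 0.207 to 3.0 (median 1.37) CPM at 30 months. Its change was -0.90 (SE 0.45, edgeR adjusted p = 0.449), negative in 6 of 8 mice, with the extreme in mouse 29 (3.29 to 0.207 CPM). Mouse 50, so high for other ligands, went from 2.29 to 1.54 CPM. Xcl1 overlaps Gm20743 on the opposite strand. Xcr1 was at 0.713 to 1.88 (median 1.33) and 0.379 to 5.42 (median 1.14) CPM, with a change of -0.07 (SE 0.36), and -0.40 without mouse 50.

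Cxcl14 (ENSMUSG00000021508, chr13:56288643-56296551, minus strand) was at 45.8, 49.8, 55.8, 37, 46, 51.1, 74.4 and 55.4 CPM at 24 months and 35, 51.7, 68.6, 50.8, 58.9, 59.3, 47 and 54.4 CPM at 30 months, with a log2 fold change of 0.04 (SE 0.12, edgeR adjusted p = 0.911) and the 2 ranges almost coinciding. Cxcl12, the stromal ligand of Cxcr4 and Ackr3, was at 83 to 144 (median 108) and 83.9 to 231 (median 109) CPM with a change of 0.07 (SE 0.17). Its one high value was that of mouse 50 at 30 months, and without that mouse the change was -0.10. Cx3cl1 (fractalkine), a membrane-bound ligand of endothelium and epithelium, was at 13.7 to 21.7 (median 19) and 12.4 to 22.9 (median 18.6) CPM with a change of -0.02 (SE 0.11), and Ccl28, an epithelial ligand of Ccr10, at 3.26 to 6.13 (median 4.49) and 3.53 to 5.97 (median 4.61) CPM with a change of 0.01 (SE 0.15). Ccl25, a ligand of Ccr9, was at 2.52 to 4.6 (median 3.63) and 2.93 to 4.32 (median 3.59) CPM with a change of 0.04 (SE 0.12), and it overlaps Elavl1 on the opposite strand.

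Of the remaining ligands, Cxcl16, the ligand of Cxcr6, was at 25.5 to 34.6 (median 32.1) and 23.9 to 88.1 (median 35) CPM with a change of 0.28 (SE 0.20), the top value again being that of mouse 50, without which the change was 0.08. Ccl20, which attracts cells through Ccr6, was at 0.22 to 2.25 (median 0.945) and 0.331 to 3.53 (median 1.5) CPM. Its change was 0.53 (SE 0.41), carried by mice 21, 43 and 50, with the other 5 mice lower at 30 months, and it was 0.24 without mouse 50. Ccl19, a ligand of Ccr7, was at 0.367 to 1.14 (median 0.697) and 0.331 to 2.17 (median 0.543) CPM with a change of -0.01 (SE 0.35) and lower in 5 of 8 mice, and the change was -0.37 without mouse 50. Near-identical copies of Ccl19 exist in the mouse genome, so its counts are uncertain.

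Ccr7 and Ccr10 were the only 2 of the 48 genes that differed in the same direction in all 8 mice, Ccr7 being higher at 30 months, as 1.08% of all genes tested did, and Ccr10 lower, as 1.69% did. Ccr7 (ENSMUSG00000037944, chr11:99144196-99155077, minus strand), the receptor that brings dendritic cells and naive T cells into lymph nodes, was at 0.393, 0.321, 0.392, 0.39, 0.408, 0.396, 0.573 and 0.888 CPM at 24 months and 0.716, 0.419, 1.71, 0.931, 1.3, 11, 1.03 and 1.24 CPM at 30 months. Mouse 50 stood far above the rest at 30 months, and the next highest were mice 21, 43 and 75. The log2 fold change was 1.57 (SE 0.46, edgeR adjusted p = 0.279), and 1.09 without mouse 50. Of its ligands, Ccl19 is given above, and Ccl21a, which lymphatic vessels make, had a log2 fold change of 0.03 (SE 0.29, edgeR adjusted p = 0.973).

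Ccr10 (ENSMUSG00000044052, chr11:101172997-101175443, minus strand), a receptor of skin-homing T cells for Ccl27 and Ccl28, was at 1.34, 1.07, 1.32, 2.59, 1.07, 1.13, 0.91 and 1.99 CPM at 24 months and 0.771, 0.806, 0.981, 0.724, 0.968, 0.819, 0.814 and 0.604 CPM at 30 months. Its 30-month values were tightly grouped, and the 2 highest 24-month values were those of mice 29 and 75. The log2 fold change was -0.75 (SE 0.23, edgeR adjusted p = 0.286), and -0.79 without mouse 50. These values rest on 17 to 73 reads per library, and Ccr10 overlaps Cntnap1 on the opposite strand. Whether the reads were counted by strand is not given in the sources used here, so reads of the 2 genes may be mixed. Ccl27a, the keratinocyte ligand of Ccr10, had a log2 fold change of 0.18 (SE 0.29, edgeR adjusted p = 0.821).

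Ccr1 (ENSMUSG00000025804, chr9:123962124-123968692, minus strand), a receptor of monocytes and neutrophils for Ccl3, Ccl6 and Ccl9 among others, was at 1.51, 1.21, 1.39, 1.35, 1.26, 1.05, 3.17 and 1.38 CPM at 24 months and 1.35, 1.93, 4.05, 2.03, 3.24, 16.8, 2.65 and 2.49 CPM at 30 months. It was higher at 30 months in 6 of 8 mice, by far the most in mouse 50. The 2 exceptions were mouse 13 and mouse 64, which had the highest 24-month value. The fold change was 1.03 (SE 0.41, edgeR adjusted p = 0.366), and 0.66 without mouse 50.

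Ccr2, the receptor of inflammatory monocytes, was at 17.6 to 35.3 (median 25.9) and 11.2 to 111 (median 23.3) CPM with a change of 0.06 (SE 0.37), and mouse 50 went from 18.7 to 111 CPM. Cxcr4 was at 2.23 to 6.88 (median 4.92) and 3.58 to 10.8 (median 5.81) CPM with a change of 0.39 (SE 0.29), and Cxcr6 at 4.99 to 14.1 (median 6.82) and 4.17 to 20.7 (median 8.26) CPM with a change of 0.23 (SE 0.25), again with their highest values in mouse 50. Without that mouse the changes of Ccr2, Cxcr4 and Cxcr6 were -0.25, 0.17 and 0.02. Receptors found on T cells had estimates of both signs, positive for Cxcr6 and Cxcr3 and negative for Ccr4, Ccr6 and Ccr8. Ccr4 was at 16.6 to 25.1 (median 20.6) and 11.1 to 27.9 (median 17.6) CPM with a change of -0.26 (SE 0.16), lower in 5 of 8 mice, and in mouse 50 it went from 24.5 to 16.8 CPM. Ccr6, found on Th17 cells, was at 0.126 to 1.11 (median 0.679) and 0.345 to 0.856 (median 0.449) CPM with a change of -0.32 (SE 0.29), and Ccr8, found on skin T cells, at 0.106 to 0.426 (median 0.311) and 0.0551 to 0.409 (median 0.214) CPM with a change of -0.44 (SE 0.41), each lower in 6 of 8 mice. Cx3cr1, the fractalkine receptor of monocytes and macrophages, was at 2.46 to 3.17 (median 2.96) and 1.58 to 3.56 (median 2.19) CPM with a change of -0.27 (SE 0.17). Ccr9, which gut-homing T cells use, was at 2.66 to 6.84 (median 5.33) and 2.79 to 8.34 (median 5.04) CPM with a change of -0.05 (SE 0.24). Cx3cr1, Ccr9 and Cxcr6 each overlap other genes in the annotation.

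The 4 atypical receptors varied little, with the highest of 16 values 1.67 to 2.4 times the lowest. Ackr4 (ENSMUSG00000079355, chr9:104084157-104126933, minus strand) was at 65.3, 77.4, 70.5, 63.1, 63.1, 66.4, 63.3 and 69.7 CPM at 24 months and 67.1, 65.1, 44.4, 75.7, 47.3, 38.3, 49.6 and 62.4 CPM at 30 months, lower in 6 of 8 mice. The lowest value was that of mouse 50, and mice 13 and 29 had more than before. The log2 fold change was -0.29 (SE 0.11, edgeR adjusted p = 0.346), and -0.22 without mouse 50. The gene overlaps Acad11 on the opposite strand.

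Ackr3 (ENSMUSG00000044337, chr1:90203980-90216751, plus strand) was at 48.6, 48.6, 41.7, 46, 48.5, 52.6, 59.9 and 42.7 CPM at 24 months and 49.2, 63.8, 60.8, 51.8, 45.8, 69.4, 45 and 55.3 CPM at 30 months, with a log2 fold change of 0.18 (SE 0.10, edgeR adjusted p = 0.512). Ackr1 (ENSMUSG00000037872, chr1:173331886-173333750, minus strand), which shares its strand with the overlapping gene Cadm3, was at 18.9, 22.1, 18.3, 14.9, 19.8, 19.7, 20.3 and 18.7 CPM and 18.8, 21.2, 26.3, 22.4, 15.2, 28, 20.5 and 20.8 CPM, with a log2 fold change of 0.17 (SE 0.11, edgeR adjusted p = 0.566). For both genes the ranges at the 2 ages overlapped, and mouse 50 had the highest value at 30 months. Ackr2 was at 24.5 to 36.9 (median 27.6) and 18.5 to 44.5 (median 24.2) CPM with a change of -0.16 (SE 0.13), lower in 5 of 8 mice.

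Mouse by mouse, the ligands differed widely. The mean log2 change over the 29 ligands was -0.49, 0.04, 0.93, -0.10, 0.42, 2.30, 0.08 and 0.17 in the 8 mice, and over the 15 tested signalling receptors it was -0.54, -0.15, 0.18, -0.37, 0.54, 1.42, -0.05 and 0.04. In mouse 50, 22 of the 29 ligands were over 2 times as high at 30 months, and for 20 of the 29 that library was the highest of all 16. In mouse 21, 13 ligands were over 2 times as high, and in mouse 13, 6 were lower by the same factor while 1 was over 2 times as high. These counts were not made over all genes tested. At 30 months mouse 50 also had the highest sum of mast cell, dendritic and fibroblast markers, but not of keratinocyte, cartilage or fat cell markers. The map of changes in each mouse shows the column of mouse 50 filled from Cxcl10 to Ccl12, with Xcl1, Ccl24, Ccl25 and Ccl28 as the ligands that were lower there.

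**Figure D4:**
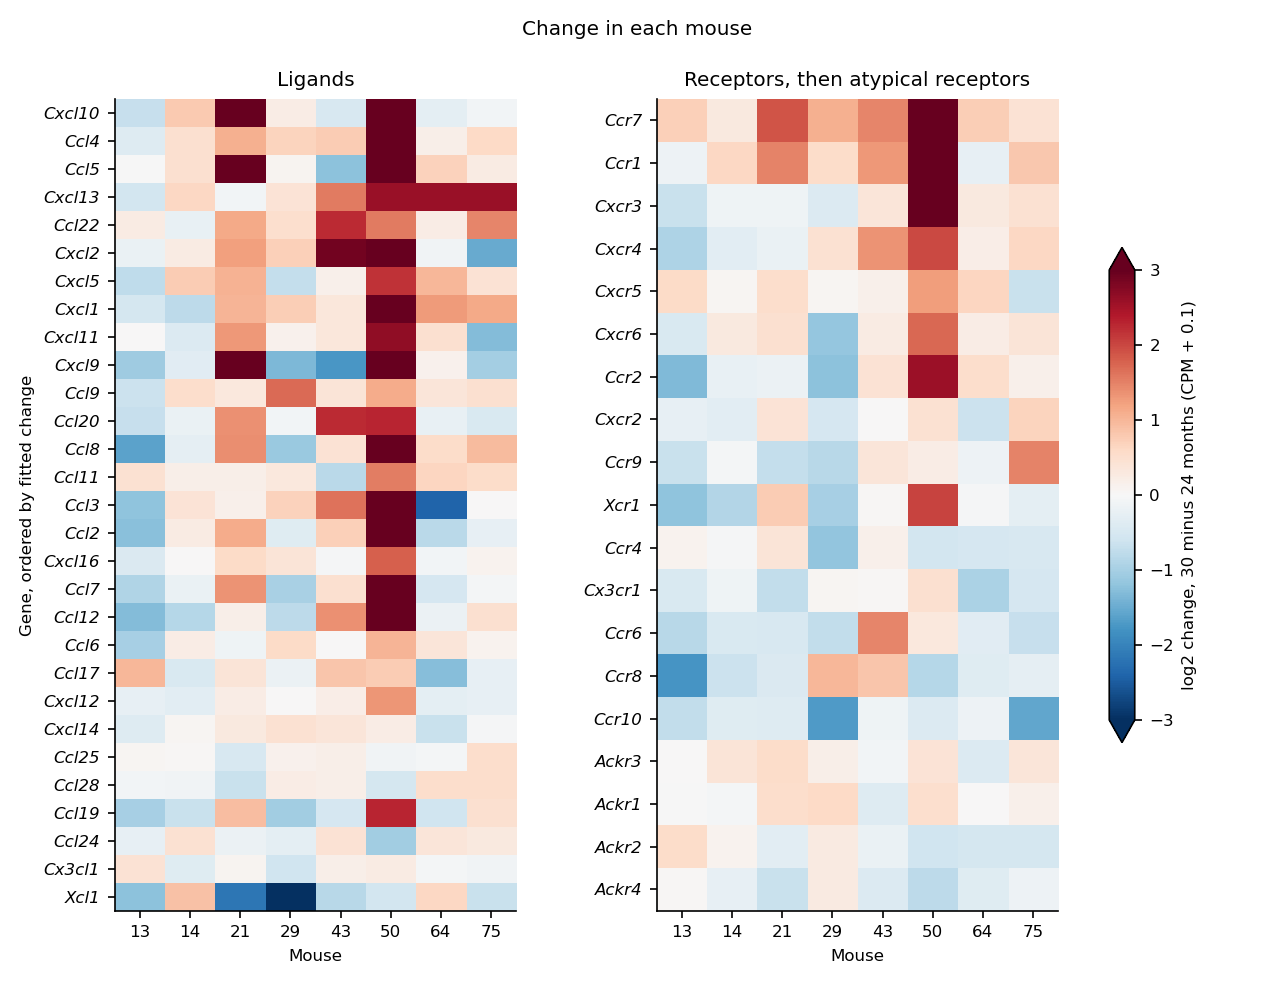
Change in each mouse (log2 of CPM + 0.1 at 30 months minus the same at 24 months) for 29 ligands, left, and 15 receptors and 4 atypical receptors, right, ordered by the fitted change; red is higher and blue lower at 30 months, and colours stop at 3 and -3. Mouse 50 has the largest change of the 8 mice in 19 of 29 ligands and 9 of 15 receptors, a count not made over all genes tested.

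Markers of several leukocyte types, but not of all, were higher at 30 months in mouse 50, as the ligands were. From 24 to 30 months its summed level of 12 T cell markers went from 180.2 to 414 CPM, of 8 NK cell markers from 19.1 to 120.4 CPM, of 6 monocyte markers from 36.9 to 244 CPM, of 14 macrophage markers from 739 to 2409.8 CPM and of 9 neutrophil markers from 4.24 to 41.3 CPM. In each of these lists mouse 50 was the highest at 30 months, where the lowest sums were 91.3, 12, 37, 636 and 7.25 CPM and the medians 187, 17.3, 43.6, 1066 and 10.2 CPM. At 24 months the ranges over all mice were 180.2 to 217 CPM for T cells, 15.7 to 20.9 CPM for NK cells, 36.9 to 58.0 CPM for monocytes, 739 to 1253 CPM for macrophages and 4.24 to 58.2 CPM for neutrophils. None of these markers was at 0 in every library. The summed level of 6 eosinophil markers went the other way in mouse 50, from 2.63 to 0.913 CPM. That level is low, and only 2 of the 6 had enough reads to be tested. That of 8 B and plasma cell markers went from 524 to 410.0 CPM, although the mean log2 change over the 6 tested genes was 0.34. Most of that sum came from Sdc1, which had a mean of 345 CPM at 24 months over the 8 mice. Endothelial markers, 9 in number, went from 156 to 400.5 CPM in mouse 50, and fibroblast markers, 8 in number, from 4124 to 14405 CPM. The endothelial sum changed by a similar amount in mouse 21, from 135 to 354 CPM, and in mouse 29, from 144 to 380 CPM. In mouse 21, whose Cxcl9 and Cxcl10 were also high, the mean log2 changes were 0.38 for T cells, 0.79 for NK cells, 1.85 for monocytes and -0.17 for macrophages. The part that the makeup of the punches has in the chemokine values was not tested.

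Over all mice, 6 of 9 endothelial markers (66.7%) and 2 of 6 monocyte markers (33.3%) were higher at an unadjusted p under 0.05, beside 4.86% of all genes. Lower at that level were 3 of 5 tested cartilage markers (60%), 2 of 6 tested B and plasma cell markers (33.3%), 2 of 8 tested keratinocyte markers (25%) and 3 of 12 dendritic and Langerhans cell markers (25%), beside 7.18% of all genes. In the keratinocyte list 1 gene was higher at that level (12.5%), beside 4.86% of all genes. This was Krt1, with a log2 fold change of 1.01 (SE 0.25, edgeR adjusted p = 0.222), higher in 8 of 8 mice. No other list of cell type markers had more than 1 gene at that level in either direction. These counts were not made without mouse 50, which had the largest mean log2 change in the endothelial (1.40) and monocyte (3.63) lists. In the endothelial list 6 of 8 mice were higher, and mice 29 (1.38) and 21 (1.34) came close to mouse 50. The 3 dendritic markers were Cd209a, with a log2 fold change of -1.09 (SE 0.26, edgeR adjusted p = 0.222), Cd207 (langerin), with -0.61 (SE 0.18, edgeR adjusted p = 0.279), and Mgl2, with -0.62 (SE 0.19, edgeR adjusted p = 0.288). Of the 12 genes in the dendritic list, 10 had a negative and 2 a positive estimate. The plot of marker lists shows the mean of that list below 0 in 7 of 8 mice. Ccr7 and Ccl22, genes that mature dendritic cells express, had positive estimates. Whether these values are linked was not tested.

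**Figure D5:**
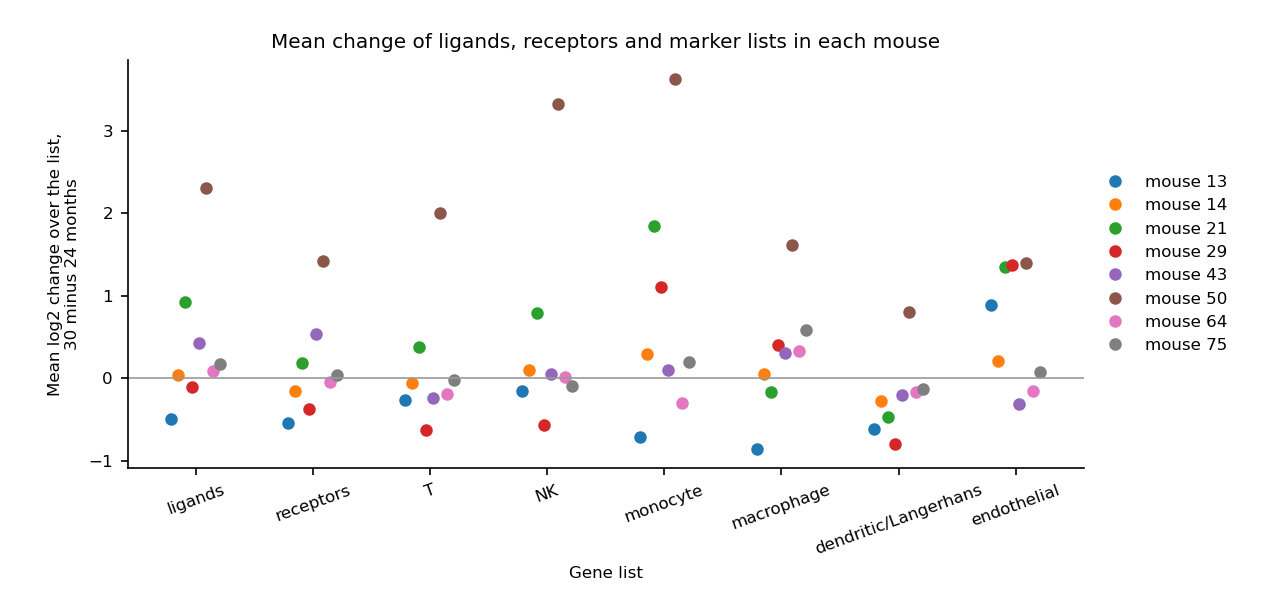
Mean log2 change (30 minus 24 months, CPM + 0.1) over the genes of each list, 1 point per mouse, for the ligands, the receptors and 6 lists of cell type markers. Mouse 50 is highest in every list shown, at 2.30 for the ligands, 2.00 for T cell, 3.32 for NK cell and 3.63 for monocyte markers.

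Genes that act around the chemokines were looked up from 4 lists. Of 10 tested genes of the remaining chemokine family, 0 had an unadjusted p under 0.05, beside 4.86% higher and 7.18% lower of all genes. A positive estimate was found for 8 of the 10 (80%), beside 51.7% of all genes. Their median log2 fold change was 0.05, beside 0.01 for all genes. Of 41 genes that carry the receptor signal, 1 was higher and 1 lower at that level (2.44% each), shares below those of all genes (4.86% and 7.18%). Grk6, a kinase that desensitizes the receptors, had a log2 fold change of 0.20 (SE 0.07, edgeR adjusted p = 0.313), and Arrb1, an arrestin that ends their signal, of -0.15 (SE 0.07, edgeR adjusted p = 0.412). Of 30 genes of inducers and of NF-kB or interferon control, 3 were higher (10%) and 0 lower, beside the same 4.86% and 7.18%. Socs3, which damps cytokine signals, had a log2 fold change of 0.52 (SE 0.14, edgeR adjusted p = 0.255) and Zfp36, which destabilizes cytokine mRNA, of 0.39 (SE 0.11, edgeR adjusted p = 0.272), both higher in 8 of 8 mice. The third was Ifng, which induces Cxcl9, Cxcl10 and Cxcl11, with a log2 fold change of 4.12 (SE 1.25, edgeR adjusted p = 0.297). Ifng had a mean of 0.0217 ± 0.0263 CPM at 24 months and 0.773 ± 1.82 CPM at 30 months (SD, n = 8), higher in 4 of 8 mice. These levels are near the floor, and at both ages the SD exceeds the mean. Of 21 genes of leukocyte adhesion and chemokine presentation, 3 were higher (14.3%) and 1 lower (4.76%), beside 4.86% and 7.18%. The 3 were Pecam1 and the selectins Selp, with 0.91 (SE 0.32, edgeR adjusted p = 0.326), and Sele, with 0.71 (SE 0.28, edgeR adjusted p = 0.364), all of which are also among the 6 endothelial markers counted above.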

How the data were processed

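RNA-seq of 16 ear-clip libraries from 8 mice was analysed. The authors sequenced 50 nt single-end reads, and per the labels' processing notes they used CASAVA 1.8.4, TopHat2 2.1.0 and HTSeq 0.6.1p1 with the genome build mm10. The values the authors deposited are raw counts per gene, not normalized. The 5 summary lines of the table, which name no gene, were kept out, and the number of columns of other samples was 0. Symbols, positions and exon lengths came from GENCODE M21 (GRCm38), which lists 45143 of the 45706 identifiers.

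edgeR 4.0.16 under R 4.3.3 (TMM, filterByExpr, quasi-likelihood test) was used with age and mouse as terms, and p-values were adjusted over all 21526 genes tested (Benjamini-Hochberg, threshold 0.05). The pairing comes from the animal numbers in the labels. The 2 libraries of a mouse deviated from their age means with a median correlation of -0.02, against -0.01 for libraries of different mice. Changes in single mice are log2 of CPM + 0.1. In simulated counts of 21278 genes with 200 changed, the fit called 189 of the 200, with the right sign, and 14 of the rest. These numbers hold for the simulated counts only. What share of changes the fit would call in the ear-clip libraries, where mouse 50 stood apart, was not tested. Values were given in full for genes with an unadjusted p under 0.05, for those with 1 direction in all 8 mice, for the 5 ligands and 3 receptors at the highest RPKM and for the 4 tested genes with the widest CPM range at a mean of at least 0.5 CPM. The members and the lists were chosen with earlier results of these data known. Alternatives were DESeq2 size factors, library totals, no filter, no block, DESeq2 1.42.0 and leaving out each mouse. Drawing used matplotlib.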

Additional observations from a re-analysis of the deposited data

Results flagged for a closer look

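For the 17 genes described in full, the 8 values at 24 months, at 30 months and the 8 changes were each searched for a single value far from the rest by Dixon's rule. Of 51 such groups 11 had one. Chance flags about 1 in 20 groups, but that rate does not apply here, because the genes were chosen partly for a wide range or a small p in the same values. In 9 of the 11 the value was that of mouse 50. At 30 months mouse 50 stood apart with 9.29 CPM of Ccl4 (next highest 0.965 CPM), 75.2 CPM of Ccl5 (next 4.44 CPM), 298 CPM of Ccl8 (next 98.2 CPM), 203 CPM of Cxcl9 (next 71.3 CPM), 16.8 CPM of Ccr1 (next 4.05 CPM) and 11 CPM of Ccr7 (next 1.71 CPM). Its log2 changes stood apart for Ccl4 at 5.28 (next 1.08), Ccr1 at 3.88 (next 1.48) and Ccr7 at 4.48 (next 1.88). The other values were from 24 months, namely 3.17 CPM of Ccr1 in mouse 64 (next highest 1.51 CPM) and 0.888 CPM of Ccr7 in mouse 75 (next 0.573 CPM). The genes share the libraries, so these flags are not independent of each other. Their cause was not tested.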

How the results depend on the processing

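No chemokine or receptor passed the adjusted threshold under any alternative. The number at an unadjusted p under 0.05 was 7 in the paired edgeR fit, 9 without the filter on low counts, 11 with DESeq2's Wald test and 16 without the block for the mouse, while leaving out single mice gave 5 (mouse 21) to 11 (mouse 13). The counts of chemokines and receptors are out of 48 tested, but 50 without the filter and 47 without mouse 21 or 50. All genes at that level numbered 2593 (12.05%) in the paired fit, 2828 (8.3% of 34054) without the filter and 2400 (11.15%) with DESeq2. They numbered 3341 (15.52%) without the block, 1833 (8.55%) without mouse 21 and 2448 (11.47%) without mouse 13. Among the fits without single mice, 1833 was the lowest total. The highest was 3772 (17.59%) without mouse 43, where 8 chemokines or receptors were at that level. Past the adjusted threshold, DESeq2 called 228 genes and the fit without the block 3, none of them a chemokine or receptor. Without the pairing the median log2 change of the ligands was 0.64. It was 0.34 in the paired fit and 0.07 to 0.55 without single mice, lowest without mouse 50. For all receptors, atypical ones included, it was -0.02, 0.18 without the pairing and -0.09 to 0.13 without single mice. Ccl22, Cxcl13, Ccr7 and Ccr10 kept an unadjusted p under 0.05 in all 13 alternatives, Ccl9 and Ccr1 in 11 and Ackr4 in 10. Ccl9 lost it without mouse 29 or 50, Ccr1 without mouse 21 or 43, and Ackr4 without mouse 21, 43 or 50. Among the 17 genes described in full, the sign turned for Cxcl9, to -0.28 without mouse 50 and to -0.20 without mouse 21, and for Cxcl14, to -0.0163 without mouse 29 and to -0.000255 without mouse 43. Of the other genes, Ccl2, Ccl3, Ccl7, Ccl12, Ccl24, Cxcl12, Ccr2 and Cxcr3 turned without mouse 50, as given with each. The ranges of Cxcl9 and Cxcl14 without single mice were -0.28 to 1.26 and -0.0163 to 0.14. The causes of these shifts were not tested. Without the pairing Ccl5, Cxcl9 and Cxcl10 had log2 fold changes of 3.74, 4.35 and 3.77. The order by RPKM gave the same 8 genes from library totals and from medians. With 2 to 13 reads of Ccr8 and 1 to 23 of Cxcl5 per library, differences within their errors were not detectable.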
